A study of Mus musculus with 2 samples.

Results

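Foxj1 and the RFX family genes Rfx1, Rfx2, Rfx3 and Rfx4, transcription factors of the cilium gene programme, were followed in EpA cells, a subpopulation of the ependymal lining of the central canal in the mouse spinal cord. They are 5 of the 17189 genes listed for EpA cells, were taken by name, and all 5 were detected in both libraries. The study asked how EpA cells differ after a spinal cord injury. One group came from cords injured by a dorsal funiculus incision and taken 3 days later (3 dpi), and the other from the uninjured cord. Both came from adult C57BL/6J mice of at least 12 weeks with the genotype Troy-CreERT2+/- x Rosa26-tdTomato. CreERT2 recombinase, which tamoxifen activates, here switches on the red reporter tdTomato in cells that use the Troy promoter, or in their descendants. Cells of a 5 mm segment around the lesion, or of the matching level, were sorted for tdTomato and sequenced with a droplet 3′ method. There was 1 library per condition. No difference below therefore has a replicate check, no test between conditions was made, and genes are called by size alone. Neither the number nor the sex of the animals is given in the sources used here.

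Foxj1 encodes a forkhead transcription factor that is the master regulator of motile cilia, and it is used as a marker of ependymal cells. RFX proteins bind the X-box, an imperfect inverted repeat found in the promoters of many cilium genes. Rfx2 and Rfx3 are known from mouse and frog studies to drive genes of ciliary assembly and motility, and in human airway cells RFX3 can act together with FOXJ1 on the same promoters. Rfx4 acts in neural tube patterning and in astroglial cells of the mouse, and Rfx1 is expressed in many tissues. The genes these factors turn on build the axoneme, the microtubule core of a beating cilium, and the dynein motors, radial spokes and central pair that move it.

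The promoters of the 4 RFX genes are shown for reference, and no Foxj1 promoter was available in the source used. Whether these sequences relate to the levels described below was not tested. Each sequence covers 250 bases before and 50 bases after a RefSeq gene start in build GRCm38.p6. Capitals mark an inverted repeat, GNAAC and then, after any 1 base, GTTGCC, searched on both strands. It is not named an X-box here. This pattern was written down after the sequences had been seen, and it contains the shorter X-box core GTTGCC.
Rfx1, chr8:84066586-84066885, plus strand: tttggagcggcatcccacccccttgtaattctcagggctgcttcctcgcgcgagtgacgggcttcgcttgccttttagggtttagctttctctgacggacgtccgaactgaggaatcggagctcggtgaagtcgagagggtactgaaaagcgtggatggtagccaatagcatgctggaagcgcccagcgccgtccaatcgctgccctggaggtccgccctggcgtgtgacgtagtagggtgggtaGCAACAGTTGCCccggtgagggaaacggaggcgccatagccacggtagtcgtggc
Rfx2, chr17:56830959-56831258, minus strand: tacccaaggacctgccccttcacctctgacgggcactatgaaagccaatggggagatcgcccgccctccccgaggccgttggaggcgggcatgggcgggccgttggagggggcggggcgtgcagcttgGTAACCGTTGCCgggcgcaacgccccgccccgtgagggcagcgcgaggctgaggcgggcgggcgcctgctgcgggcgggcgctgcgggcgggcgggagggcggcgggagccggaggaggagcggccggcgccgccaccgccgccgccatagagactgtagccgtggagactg
Rfx3, chr19:28011117-28011416, minus strand: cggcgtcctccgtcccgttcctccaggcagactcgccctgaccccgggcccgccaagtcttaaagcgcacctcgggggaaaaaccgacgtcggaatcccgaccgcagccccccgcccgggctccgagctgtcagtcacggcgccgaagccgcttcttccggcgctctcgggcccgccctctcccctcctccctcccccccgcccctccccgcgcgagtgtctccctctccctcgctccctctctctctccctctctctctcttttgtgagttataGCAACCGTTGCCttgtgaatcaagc
Rfx4, chr10:84755798-84756097, plus strand: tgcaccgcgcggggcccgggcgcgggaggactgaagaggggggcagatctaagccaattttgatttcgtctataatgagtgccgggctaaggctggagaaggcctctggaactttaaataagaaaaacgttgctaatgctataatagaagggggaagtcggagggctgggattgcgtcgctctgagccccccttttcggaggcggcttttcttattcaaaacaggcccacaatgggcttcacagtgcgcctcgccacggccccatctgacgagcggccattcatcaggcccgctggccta

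The repeat stood once in the promoters of Rfx1, Rfx2 and Rfx3. It began 5 bases before the gene start in Rfx1, 122 bases before it in Rfx2 and 25 bases after it in Rfx3. The letters were GCAACAGTTGCC, GTAACCGTTGCC and GCAACCGTTGCC in that order of genes. Neither of the 2 listed Rfx4 promoters held it, and the second, at chr10:84837898-84838197, lies inside the gene. Of 27025 genes with a promoter in the table, 25 (0.0925%) held the pattern. Among them are Rfx1, Rfx2 and Rfx3, whose sequences had been seen before it was written, so this share is no test of the pattern. It stood in 0 of 59 genes of the motile cilium lists used below and in 0 of 36 genes of the transport and basal body lists. GTTGCC alone, on either strand, stood in 14.1% of all these genes, in 23 of 59 genes of the motile cilium lists used below (39%) and in 18 of 36 genes of the transport and basal body lists (50%). The forkhead core GTAAACA was found in none of the RFX promoters and in 4.05% of all genes. It stood in 1 of 59 genes of the motile cilium lists (1.7%) and in 0 of 36 genes of the transport and basal body lists. A match is a string of letters and not a measured binding site.

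Foxj1 itself lies at chr11:116330704-116335399 on the minus strand in GENCODE M21 on build GRCm38. Rfx1 spans chr8:84066834-84096992 on the plus strand, the antisense gene C330011M18Rik overlaps it, and the microRNA gene Mir709 overlaps it on the same strand. Rfx2 spans chr17:56775897-56831013 on the minus strand with no overlapping gene. Rfx3 spans chr19:27761721-28011166 on the minus strand and overlaps the antisense gene Gm20407 and the pseudogene Gm8412. Rfx4 spans chr10:84756062-84906538 on the plus strand and overlaps the snRNA gene Gm24226 on the opposite strand. All 5 are protein-coding. Whether the counting used strand is not given in the sources used here, so the values of Rfx1, Rfx3 and Rfx4 could include reads of genes on the opposite strand.

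The authors' EpA set held 1004 cells of the injured library and 555 cells of the uninjured library, with 25296289 and 7689179 unique molecular identifiers (UMIs, counted transcripts). The median cell had 20158.5 UMIs in the injured library and 11387 in the uninjured library, and the median share of mitochondrially encoded UMIs was 6.76% and 11.2%. The 7 ependymal markers other than Foxj1 that were used to check the label (Ccdc153, Tmem212, Rarres2, Pltp, Mia, Dynlrb2 and Rsph1) were each above 100 CPM in both libraries. CPM is a gene's UMIs per 1000000 UMIs of the library's EpA cells. The sum of these markers was 2466 CPM in injured EpA cells and 9498 CPM in uninjured ones. Markers of microglia summed to 43.1 and 48.6 CPM, of endothelial cells to 16.6 and 18.0 CPM, and of fibroblasts to 37.9 and 30.4 CPM. Astrocyte markers, several of which ependymal cells also make, summed to 508 and 579 CPM. Among EpA cells 2 barcode sequences occurred in both libraries, and among all barcodes 18 did.

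Foxj1 was the most abundant of the 5 in both libraries. Its transcripts made up 233 CPM in injured EpA cells (5884 UMIs; 227 to 239) and 421 CPM in uninjured ones (3239 UMIs; 407 to 436), a 1.81-fold lower level (1.73 to 1.89). Ranges in brackets are 95% intervals that cover counting error alone. Counted as UMIs per cell without scaling, the same gene stood at 5.86 in injured cells (5.71 to 6.01) and 5.84 in uninjured cells (5.64 to 6.04), a ratio of 1.004 (0.96 to 1.05). The mean injured cell thus held as many Foxj1 UMIs as the mean uninjured cell, within counting error, among a larger total of other transcripts. Over the 10527 genes that averaged 5 CPM or more, the median log2 ratio was −0.03 in CPM and 0.83 in UMIs per cell.

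The factors Rfx2 and Rfx3 showed the same form of difference. Rfx3 stood at 55.5 CPM (1404 UMIs; 52.6 to 58.5) in injured cells and 95.2 CPM (732 UMIs; 88.4 to 102) in uninjured cells. Per cell this was 1.40 UMIs in the injured library and 1.32 in the uninjured library. Rfx2 stood at 23.0 CPM (581 UMIs; 21.1 to 24.9) in injured cells and 44.1 CPM (339 UMIs; 39.5 to 49.0) in uninjured cells, or 0.579 and 0.611 UMIs per cell. The log2 ratios in CPM were −0.78 (−0.91 to −0.65) for Rfx3 and −0.94 (−1.14 to −0.74) for Rfx2.

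Rfx1 was the least abundant member, at 12.3 CPM (310 UMIs; 10.9 to 13.7) in injured cells and 25.4 CPM (195 UMIs; 21.9 to 29.2) in uninjured cells. It was 2.07-fold lower (1.72 to 2.48) and the only one of the 5 past 2-fold, with an interval that reaches below 2-fold. Among all 10527 genes, 11.3% were at least 2-fold lower. Its 0.309 UMIs per injured cell and 0.351 per uninjured cell had overlapping intervals (0.275 to 0.345 and 0.304 to 0.404).

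Rfx4 went the other way. It stood at 125 CPM (3165 UMIs; 121 to 130) in injured cells and 95.6 CPM (735 UMIs; 88.8 to 103) in uninjured cells, 1.31-fold higher (1.21 to 1.42). Per cell it counted 3.15 UMIs in the injured library (3.04 to 3.26) and 1.32 in the uninjured library (1.23 to 1.42), 2.38-fold higher (2.20 to 2.58). It was the only member past 2-fold higher on that unscaled measure, on which 40.2% of genes were. In uninjured EpA cells Rfx3 and Rfx4 stood at equal levels within counting error, and in injured cells Rfx4 was the higher of the pair. These are UMI counts of a 3′ method and were not scaled by gene length. Whether gene length affects the order of levels was not tested.

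**Figure D1:**
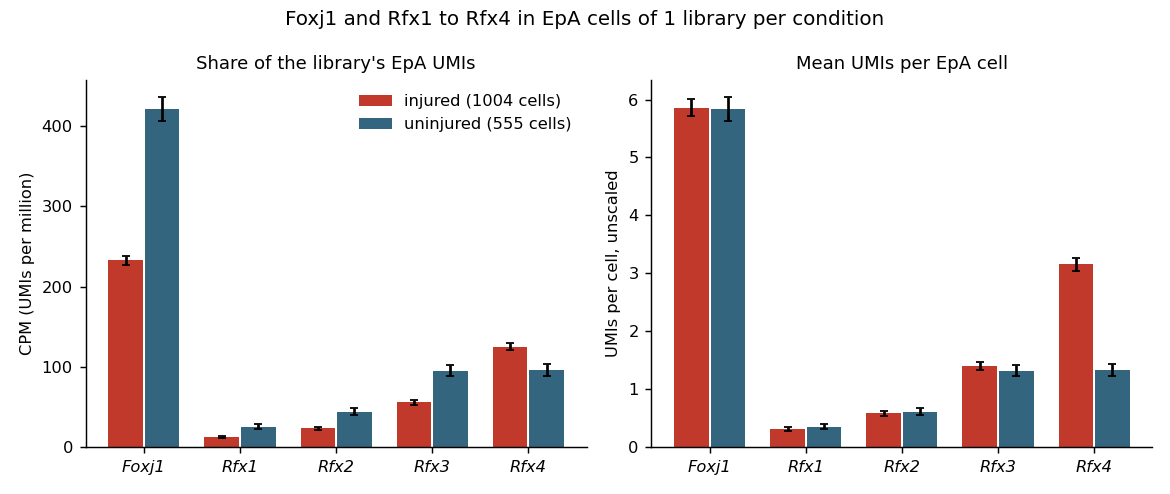
Levels of the 5 genes in EpA cells, as CPM (left, UMIs per 1000000 UMIs) and as mean UMIs per cell without scaling (right); red bars are injured and blue bars uninjured, with 95% Poisson intervals from counting alone. Foxj1 is lower in injured cells in CPM (233 against 421) and level in UMIs per cell (5.86 against 5.84), while Rfx4 is higher in injured cells on both scales.

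Over single cells, Foxj1 was more uneven after injury. Each cell was thinned at random to 5000 UMIs to give all cells the same depth, which left 972 injured and 539 uninjured cells and dropped 32 and 16 shallower ones. At that depth 65.8% of injured cells (62.8 to 68.8) and 85.3% of uninjured cells (82.1 to 88.2) held a Foxj1 UMI. Without thinning the shares were 90.4% and 95.7%. In cells of 8000 to 16000 UMIs, thinned alike, the shares lay close together, at 86.2% of 305 injured and 83.3% of 336 uninjured cells. No interval was computed for these shares. The variance of Foxj1 UMIs over cells was 1.97 times the mean in the injured library and 1.17 times in the uninjured library, where 1 is what random sampling of equal cells gives. Accordingly, 34.2% of injured cells had no Foxj1 UMI where a Poisson draw at the same mean leaves 19.7%, against 14.7% and 11.9% in the uninjured library. Free RNA in droplets sets a background for such shares. Fibroblast-like cells of the injured library, which should lack Foxj1, held a Foxj1 UMI in 1 of 34 cells (2.94%, median 22353 UMIs). Unnamed injured clusters led by Arg1 and by Ackr1 held one in 3 of 28 (10.7%) and 2 of 18 cells (11.1%). The other unnamed injured clusters, apart from one led by Nnat and described below, lay between 4.48% and 5.26%. Microglia or macrophage-like cells of the uninjured library held one in 2 of 24 cells (8.33%, median 8764 UMIs). All these shares are without thinning.

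The RFX genes were sparser. Rfx4 was seen in 41.6% of injured cells (38.4 to 44.7) and 38.03% of uninjured cells (33.9 to 42.3) at 5000 UMIs, with overlapping intervals, and its variance was 1.43 and 1.10 times the mean. Rfx3 was seen in 26.9% of injured cells (24.1 to 29.8) and 39.3% of uninjured cells (35.2 to 43.6), and its variance was 1.17 and 0.93 times the mean. Rfx2 was seen in 14.1% of injured cells (12.0 to 16.4) and 18.2% of uninjured cells (15.01 to 21.7). Rfx1 was seen in 6.79% (5.29 to 8.56) and 13.2% (10.4 to 16.3), with variances at or below the mean in both libraries. Without thinning, the shares for Rfx1 were 23.7% and 28.3%, for Rfx2 39.4% and 39.8%, for Rfx3 65.0% and 66.8%, and for Rfx4 75.5% and 60.4%. Rfx1 was the member whose EpA level lay closest to that in the following cells outside EpA. Fibroblast-like cells of the injured library held it at 5.23 CPM (1.92 to 11.4), with Foxj1 and Rfx4 at 1.74 CPM each. A cluster of 67 injured cells outside EpA, led by S100a9 and S100a8, held it at 6.48 CPM (4.11 to 9.73). Foxj1 was at 0.846 and Rfx4 at 0.282 CPM in that cluster. Whether the Rfx1 UMIs there are free RNA or the cells' own transcripts was not tested.

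**Figure D2:**
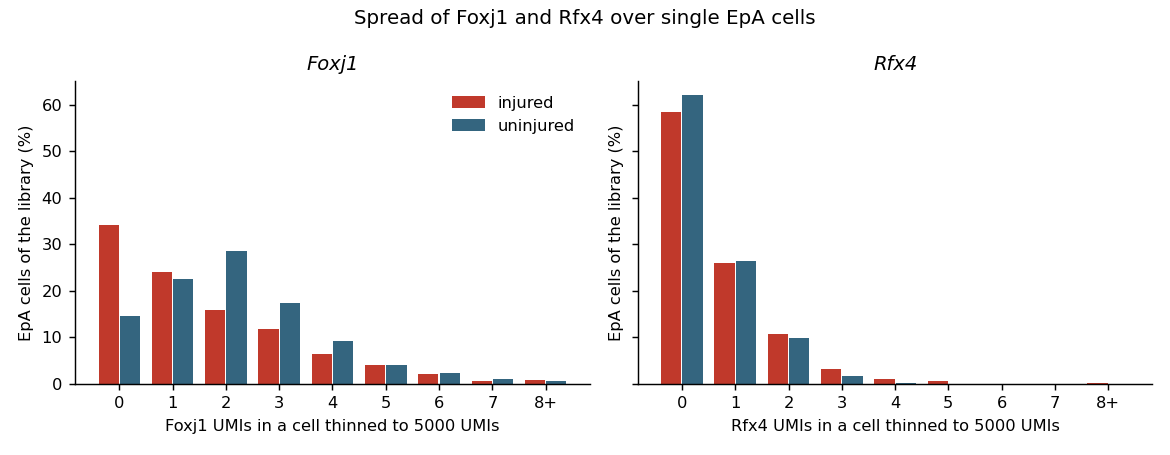
Share of EpA cells (percent of the library's cells) by the number of Foxj1 (left) and Rfx4 (right) UMIs in a cell thinned to 5000 UMIs; red is injured (972 cells) and blue uninjured (539 cells). Injured cells are more often at 0 Foxj1 UMIs (34.2% against 14.7%), while the Rfx4 distributions lie close together.

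To relate the factors to their programme, 5 lists of motile cilium genes were used: dynein arms and docking, dynein assembly factors, radial spoke and central apparatus, nexin link, ruler and tektins, and Cfap and inner microtubule proteins. In the sums, 66 of their 73 measured genes were at least 2-fold lower in injured cells and none was 2-fold higher, where 11.3% of all genes were lower and 11% higher. Their median log2 ratio was −1.43. This is a larger difference than that of any of the 5 factors. Of the 73 genes, 68 had a lower ratio than Foxj1. Rsph14, a radial spoke gene, was at 6.56 CPM in injured and 33.3 CPM in uninjured cells (log2 ratio −2.34, −2.63 to −2.06). Hydin, of the central pair apparatus, was at 43.3 and 182 CPM (−2.07), and Iqca, of the nexin-dynein link, at 90.2 and 370 CPM (−2.04). Dnah12, an inner arm dynein heavy chain, was at 103 and 342 CPM (−1.74), and Zmynd10, which helps to assemble dynein arms in the cytoplasm, at 32.97 and 114 CPM (−1.79). Cfap57, a cilia and flagella associated gene, was at 15.1 and 56.2 CPM (−1.90). The log2 ratios of the other genes named from these lists were −1.77 for Dnah10, −1.68 for Dnah1, −1.93 for Daw1, −1.92 for Dnaaf1, −1.89 for Cfap221, −1.85 for Efcab2, −1.80 for Tekt4, −1.87 for Cfap73 and −1.83 for Cfap77. The count of 66 depended on cell weights and depth. At 5000 UMIs per cell 21 genes were called lower, 15 when each cell had equal weight and 0 in cells of 8000 to 16000 UMIs. The share of all genes past 2-fold at those settings was not counted. As UMIs per cell without scaling, 8 of the 73 genes were 2-fold lower, with 1.64% of all genes past that mark.

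Genes of intraflagellar transport and of the basal body, which non-motile cilia also use, lay nearer to the factors. Of 37 measured, 11 were at least 2-fold lower, 1 was higher and the median log2 ratio was −0.81. Over all genes 11.3% were lower and 11% higher by that rule. Ttc8, a BBSome subunit, was at 65.2 CPM in injured and 149 CPM in uninjured cells (−1.19), and Pifo at 138 and 396 CPM (−1.52). Bbs1 (−1.19), Ift20 (−1.18) and Cetn4 (−1.10) lay close to Ttc8. The higher gene was Plk4, the kinase that starts centriole duplication, at 16.7 and 3.77 CPM (2.12). Mitosis genes, which mark dividing cells, were also higher in injured cells. Of 10 core mitosis genes, 9 were at least 2-fold higher, against 11% of all genes. Ccnb1 counted 1394 UMIs in injured and 3 in uninjured cells, Ube2c 3930 and 13, and Cdk1 2443 and 15. Without the cells that held at least 2 core mitosis genes at 5000 UMIs, the Plk4 log2 ratio was 0.37 and no longer past 2-fold.

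Regulators that act beside or above Foxj1 differed among themselves. Of 7 other measured regulators, 3 lay under 2-fold in CPM. Another 3 were at least 2-fold lower and 1 was higher, where 11.3% and 11% of all genes were. None of the 3 was 2-fold lower as UMIs per cell (log2 ratios −0.75 for Trp73, −0.70 for Myb and −0.39 for Ulk4) or with every cell weighted alike (−0.81, −0.76 and −0.68), and in cells of 8000 to 16000 UMIs they were at 0.19, −0.34 and −0.11. Trp73, which encodes a p53 family factor upstream of Foxj1, was at 6.997 CPM in injured and 21.5 CPM in uninjured cells (log2 ratio −1.62, −1.93 to −1.30). Myb, known from the early steps of multiciliated cell formation, was at 22.8 and 67.6 CPM (−1.57), and Ulk4, needed for normal ependymal cilia in the mouse, at 40.6 and 96.6 CPM (−1.25). Gmnn, encoding geminin, a replication licensing inhibitor also present in cycling cells, was at 45.0 and 4.55 CPM (3.28, 2.82 to 3.83). Its log2 ratio was 1.48 without dividing cells and 0.49, under 2-fold, in cells of 8000 to 16000 UMIs. E2f4 (0.60), E2f5 (0.74) and Tfdp2 (−0.12), partners in transcription complexes, did not reach 2-fold. Gmnc and Ccno were below the level of 5 CPM set for measurement. Other RFX family and complex genes, which serve immune or general promoters, differed little. Rfx5 had a log2 ratio of −0.26, Rfx7 of 0.18, Rfxank of 0.28 and Rfxap of −0.11, and the intervals of all 4 reached 0.

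**Figure D3:**
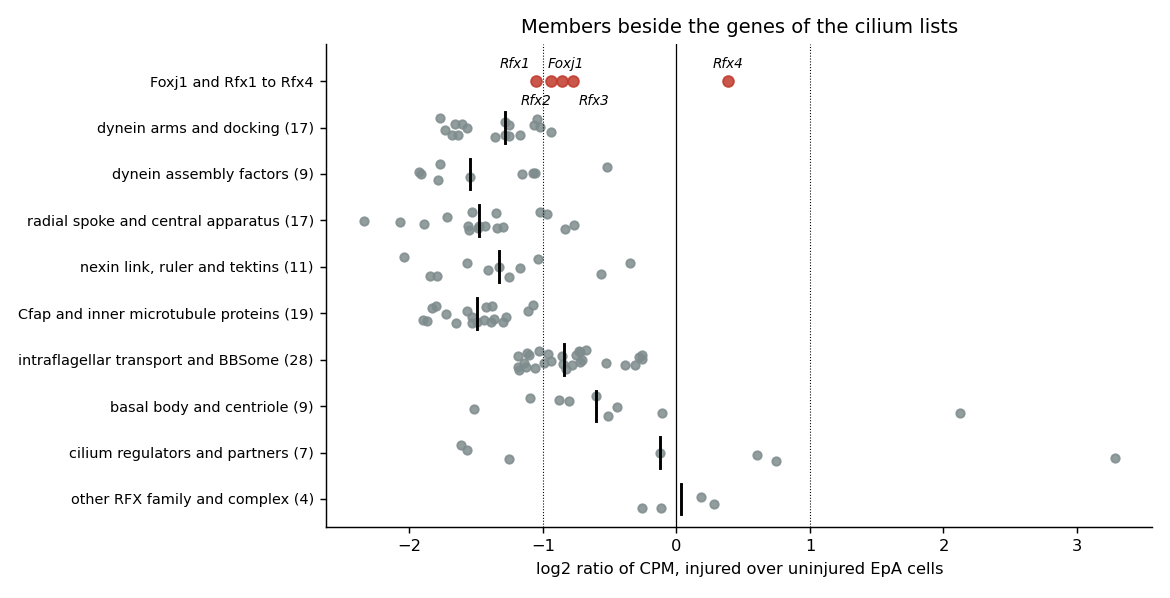
Log2 ratio of CPM (injured over uninjured EpA cells) of the 5 factors (red) and of each measured gene (grey points) of 9 cilium and regulator lists, with the number measured in brackets and the list's median as a black bar; dotted lines mark 2-fold. Foxj1, Rfx1, Rfx2 and Rfx3 lie between −1.05 and −0.78, to the right of the motile list medians, and Rfx4 lies at 0.39.

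Because each library held 1 sum of both quantities, motile cilium UMIs were also counted per UMI of each factor, a ratio in which the scaling cancels. There were 21.3 motile cilium UMIs per Foxj1 UMI in injured cells and 31.5 in uninjured cells (log2 ratio −0.56, −0.63 to −0.50). Per Rfx3 UMI the values were 89.3 and 139, per Rfx2 UMI 216 and 301, and per Rfx1 UMI 404 and 523. Per Rfx4 UMI they were 39.6 and 139, the largest difference of the 5. Motile cilium transcripts were therefore fewer relative to each of the 5 factors in the injured library.

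Within the injured library, Foxj1 followed the motile cilium transcripts of the same cell. At 5000 UMIs per cell, the Spearman correlation between Foxj1 UMIs and motile cilium UMIs was 0.64 over 972 injured cells and 0.17 over 539 uninjured cells (Pearson 0.58 and 0.16). For Rfx2 it was 0.23 and 0.10, for Rfx3 0.22 and 0.02, for Rfx1 0.14 and 0.04, and for Rfx4 −0.14 and −0.01. These are descriptions over cells that share a library. The cells also differ in depth. Motile cilium UMIs at 5000 UMIs had a correlation of −0.65 with the cell's full UMI total in the injured library and 0.06 in the uninjured library. Against the mitochondrial share the values were 0.63 and −0.34. Among cells of 8000 to 16000 UMIs, a range chosen after the data had been seen, the Foxj1 correlation was 0.23 over 305 injured cells and 0.17 over 336 uninjured cells.

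The cells without a Foxj1 UMI at 5000 UMIs show the same relation. There were 332 such cells in the injured library, with a median of 7 motile cilium UMIs, and 79 in the uninjured library, with a median of 61. Cells with 3 or more Foxj1 UMIs had a median of 62 motile cilium UMIs in the injured library (251 cells) and 67 in the uninjured library (185 cells). Of the cells without a Foxj1 UMI, 89.2% in the injured library and 13.9% in the uninjured library had fewer than 46 motile cilium UMIs, the 5th percentile of all uninjured cells. Between pairs of factors in 1 cell, the largest correlations were 0.22 for Foxj1 with Rfx2 and 0.20 for Foxj1 with Rfx3, both in the injured library, where Foxj1 with Rfx4 gave −0.09. In the uninjured library all 10 pairs lay between −0.07 and 0.07.

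When the cells of each library were ranked by motile cilium UMIs at 5000 UMIs and cut into 5 groups of equal size, the scaled and unscaled levels of Foxj1 both climbed with the rank in injured cells. The CPM of injured cells, in order from fewest to most motile cilium UMIs, were 61.4, 119, 343, 487 and 595, and those of uninjured cells 341, 384, 426, 445 and 498. In UMIs per cell without scaling, injured cells held 2.81, 3.92, 7.28, 7.24 and 8.86, and uninjured cells 4.31, 5.56, 6.24, 6.65 and 7.12. The equal means of 5.86 and 5.84 UMIs per cell therefore came from injured cells that ranged wider than uninjured cells, below them in the first groups and above them in the last. The lowest injured group, at 61.4 CPM (56.4 to 66.8), remained above the 1.74 CPM (0.21 to 6.29) of fibroblast-like cells in that library. Among the unnamed injured clusters other than the one led by Nnat, the highest level was 8.28 CPM (1 UMI; 0.21 to 46.1).

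Rfx3 varied little across injured cells without scaling, and in uninjured cells the first group was lower than the others. Injured cells held 1.34, 1.32, 1.58, 1.38 and 1.55 Rfx3 UMIs per cell from the lowest to the highest group, against 0.806, 1.59, 1.36, 1.37 and 1.64 in uninjured cells. Rfx2 counted 0.364, 0.387, 0.677, 0.649 and 0.892 UMIs per injured cell and 0.444, 0.648, 0.722, 0.657 and 0.664 per uninjured cell. Rfx4 ran the opposite way in injured cells, at 5.80, 4.85, 3.01, 1.24 and 1.36 UMIs per cell, against 1.24, 1.38, 1.36, 1.58 and 1.20 in uninjured cells. The injured cells with the most motile cilium transcripts thus had Rfx4 at the uninjured level. Depth ran with these groups: median totals of injured cells were 40437, 29839.5, 17410, 11545.5 and 11778 UMIs, and those of uninjured cells lay between 11077.5 and 12215.5. On the CPM scale, which takes depth out, Rfx4 was at 127, 147, 142, 83.2 and 91.4 in injured cells. Rfx3 and Rfx2 climbed on that scale across injured cells. Rfx3 was at 29.4, 40.2, 74.5, 92.5 and 104 CPM, and Rfx2 at 7.97, 11.7, 31.95, 43.7 and 59.9 CPM. Uninjured cells had Rfx3 at 63.85, 110, 93.0, 91.7 and 114 CPM, and Rfx2 at 35.2, 44.8, 49.4, 44.0 and 46.4 CPM.

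**Figure D4:**
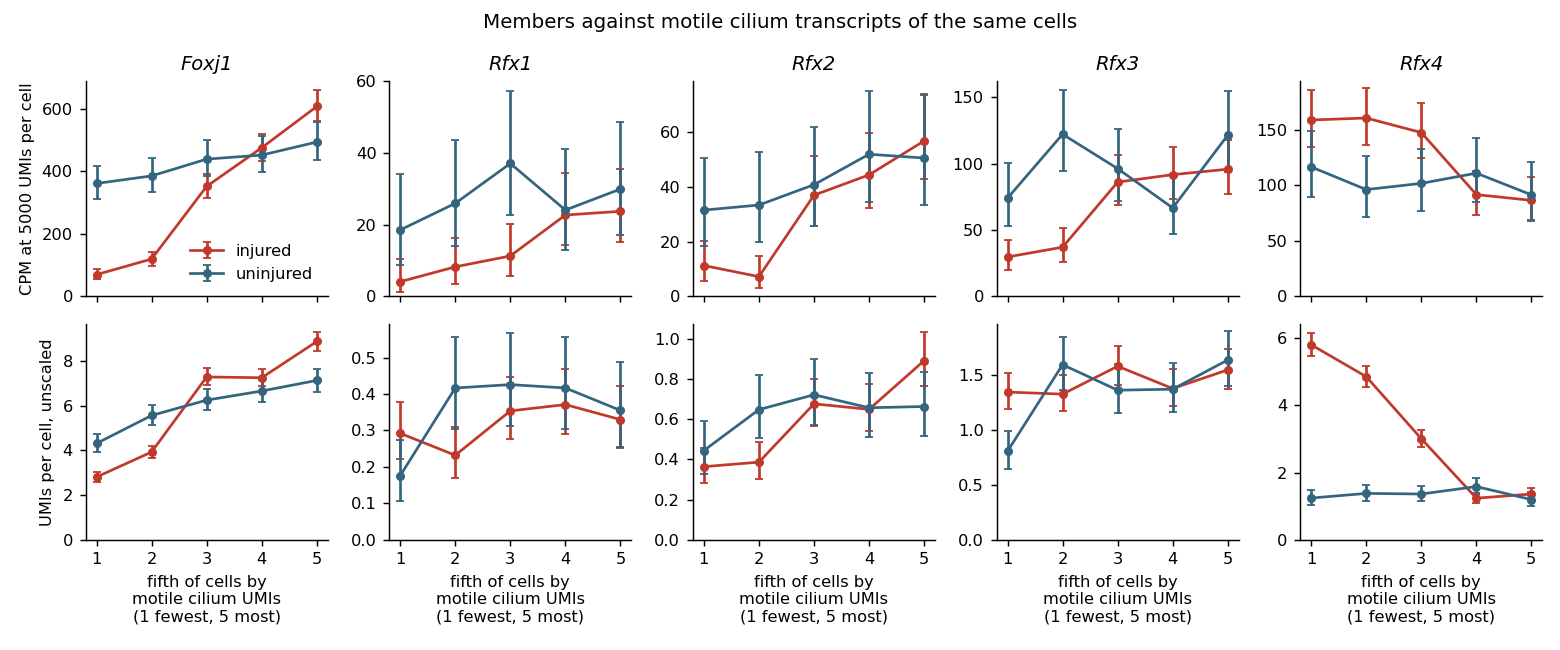
Levels of the 5 genes in 5 equal groups of cells ranked by motile cilium UMIs (group 1 fewest, group 5 most), as CPM of cells thinned to 5000 UMIs (top) and as UMIs per cell without scaling (bottom); red is injured, blue uninjured, and bars are 95% Poisson intervals. Foxj1 climbs across injured cells on both scales (2.81 to 8.86 UMIs per cell). Rfx3 lies between 1.32 and 1.58 UMIs per cell across injured cells but climbs from 29.7 to 95.9 on the top scale. Per cell it is lower in the first uninjured group (0.806) than in the others. Rfx4 per cell is highest in the injured cells with the fewest motile cilium UMIs (5.80 UMIs per cell).

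The same value of 46 motile cilium UMIs split the injured cells. Below it lay 551 of 972 injured cells (56.7%, 53.5 to 59.8), and 421 lay within the uninjured range, with 146 injured cells within 20% of the value. The class is a range of a continuous count and not a cell type. Against the 513 uninjured cells of the range, the injured cells below it had Foxj1 at 132 CPM compared with 425 CPM, 3.21-fold lower (3.05 to 3.39). Rfx2 was at 13.5 and 45.0 CPM, 3.32-fold lower (2.81 to 3.93), Rfx1 at 8.46 and 26.0 CPM, 3.08-fold lower (2.48 to 3.82), and Rfx3 at 41.2 and 97.2 CPM, 2.36-fold lower (2.13 to 2.61). Rfx4 was at 138 and 95.4 CPM, 1.45-fold higher (1.33 to 1.57). In this comparison 4 of 5 members were at least 2-fold lower, where 17.3% of all genes were. The members did not set the split, but transcripts related to them did.

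Without scaling, the factors differed from each other in the same cells. Injured cells below the range held 4.54 Foxj1 UMIs per cell against 6.08 in uninjured cells of the range, 1.34-fold lower (1.27 to 1.41). Rfx2 was 1.39-fold lower (1.17 to 1.64), and Rfx1 1.28-fold lower (1.03 to 1.59). Rfx3 stood at 1.41 and 1.39 UMIs per cell, level within counting error, and Rfx4 at 4.73 and 1.37, 3.47-fold higher (3.19 to 3.77). The median total was 28543 UMIs in the injured cells below the range and 11553 in the uninjured cells of the range. At a shared depth of 16000 to 32000 UMIs, 238 injured cells below the range and 129 uninjured cells of the range could be set side by side. Foxj1 was then at 170 and 404 CPM (2.37-fold lower, 2.18 to 2.59), Rfx1 at 9.69 and 32.6 CPM, Rfx2 at 18.3 and 44.5 CPM, Rfx3 at 50.9 and 106 CPM, and Rfx4 at 206 and 103 CPM (1.996-fold higher, 1.75 to 2.27). The difference in each of the 5 factors thus held its direction between cells of similar depth. The ependymal markers other than Foxj1 summed to 777 CPM in the injured cells below the range, with 3 of 7 above 100 CPM. They summed to 9601 CPM in the uninjured cells of the range. Rsph1, a marker in this sum, also belongs to the motile cilium lists that set the split. The sum is therefore not independent of the split. Microglial markers were at 42.2 and 47.4 CPM, and markers of mural cells at 162 and 27.3 CPM, of which the smooth muscle actin gene Acta2 made up 149 and 26.6.

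Injured cells within the uninjured range differed less. Foxj1 was at 532 CPM in these 421 cells and 425 CPM in the 513 uninjured cells, 1.25-fold higher (1.19 to 1.31). Per cell Foxj1 counted 7.95 and 6.08 UMIs. Rfx1, Rfx2, Rfx3 and Rfx4 had CPM ratios of 0.90 (0.72 to 1.12), 1.13 (0.97 to 1.33), 1.005 (0.90 to 1.12) and 0.93 (0.83 to 1.04), whose intervals include 1. No member passed 2-fold here, as was the case for all but 0.608% of genes on the lower side and 1.34% on the higher side. In cells of the range with 8000 to 16000 UMIs, Foxj1 was at 493 CPM in 233 injured cells and 427 CPM in 316 uninjured cells, 1.16-fold higher (1.07 to 1.25). Astrocyte markers summed to 565 and 580 CPM in the cells of the range.

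Dividing cells had a lower share of Foxj1 than the other cells below the range. Of the injured cells below the range, 145 held at least 2 of 10 core mitosis genes at 5000 UMIs, and they had Foxj1 at 71.0 CPM (65.2 to 77.2) against 174 CPM (167 to 182) in the other 406. Per cell the counts were 3.74 and 4.83 Foxj1 UMIs, at median totals of 50243 and 24350 UMIs. Rfx3 was at 21.7 and 54.4 CPM, and Rfx4 at 92.2 and 169 CPM. Only 18 dividing injured cells lay within the range, and their Foxj1 level of 533 CPM (452 to 625) was that of the other cells of the range. Without all dividing cells, the Foxj1 log2 ratio between the libraries was −0.49 in place of −0.86.

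By depth of the cell, the difference in CPM was found in deep cells. Below 8000 UMIs Foxj1 was at 448 CPM in 93 injured cells and 450 CPM in 70 uninjured cells, and from 8000 to 16000 UMIs at 448 and 422 CPM. From 16000 to 32000 UMIs it was at 293 and 399 CPM, 0.73 times the uninjured level (0.68 to 0.79), and above that at 128 CPM in 250 injured cells and 498 CPM in 17 uninjured cells. Rfx2 and Rfx3 followed the same order, with log2 ratios of −0.05 and −0.09 from 8000 to 16000 UMIs, −0.60 and −0.62 from 16000 to 32000, and −1.87 and −1.40 above. The motile cilium genes were 0.85 times the uninjured level from 8000 to 16000 UMIs, 0.46 times from 16000 to 32000 and 0.16 times above. Rfx4 was at 101 and 94.4 CPM from 8000 to 16000 UMIs, at 169 and 103 CPM (1.64-fold higher, 1.45 to 1.86) from 16000 to 32000, and at 105 and 89.98 CPM above. The deepest group holds only 17 uninjured cells.

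**Figure D5:**
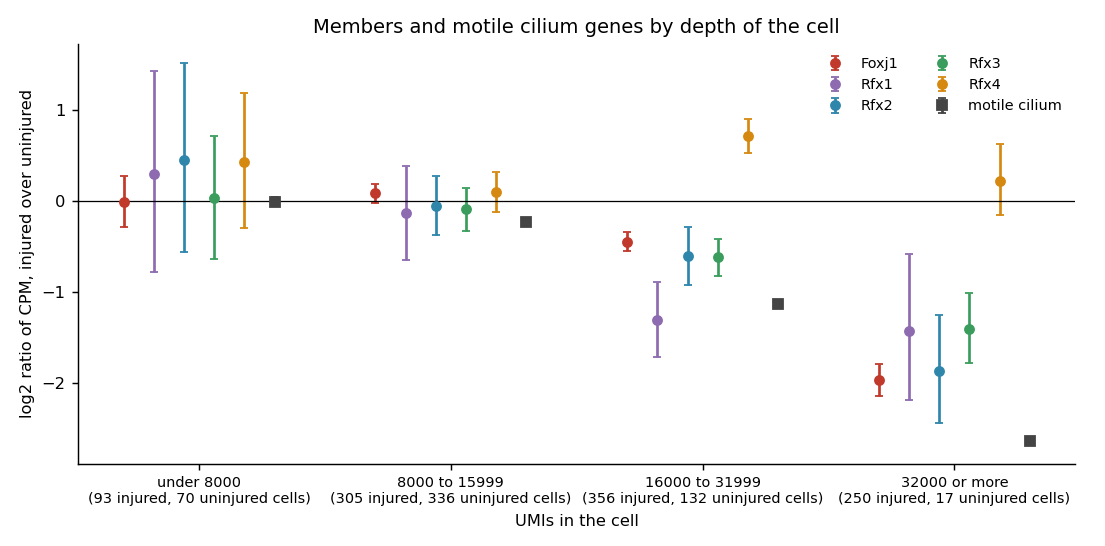
Log2 ratio of CPM (injured over uninjured) of the 5 genes (circles) and of the summed motile cilium genes (squares) in cells of 4 depth ranges (UMIs in the cell), with 95% counting intervals; the number of cells stands under each range. The intervals of the 5 genes include 0 in both ranges below 16000 UMIs, and the ratios reach −1.96 for Foxj1 and −2.64 for the motile cilium genes in the deepest cells, where Rfx4 is at 0.23 with an interval that includes 0.

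The factors were also counted in kept cells that are not EpA. The 224 injured cells outside the set had Foxj1 at 16.1 CPM and the 156 uninjured ones at 11.7 CPM. Of the 112 Foxj1 UMIs behind the injured value, 100 came from a cluster of 27 cells led by Nnat, Fabp7 and Crym. It was given no cell type name because the naming rule did not allow the name ependymal outside EpA. The 8 ependymal markers, Foxj1 included, were at 100 CPM or more in it. That cluster had Foxj1 at 120 CPM (97.5 to 146), Rfx4 at 101 CPM (80.3 to 125) and Rfx3 at 58.7 CPM (43.4 to 77.6). The 8 astrocyte-like cells of the injured library had Rfx4 and Rfx3 at 45.7 CPM each (3 UMIs; 9.43 to 134) and no Foxj1 UMI. The 30 astrocyte-like cells of the uninjured library had Rfx4 at 162 CPM (38 UMIs; 115 to 223) and Rfx3 at 76.8 CPM (45.5 to 121). The interval of Rfx4 in these uninjured cells lies above that of uninjured EpA cells, 88.8 to 103 CPM. Foxj1 in the 30 cells was 29.9 CPM, from 7 UMIs in 2 cells. Rfx4 was not detected in the 24 microglia or macrophage-like cells of that library, with a 95% upper bound of 19.1 CPM.

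Few genes followed a member closely in both libraries. Ranked by the smaller of the 2 correlations over cells at 5000 UMIs, among genes of at least 50 CPM in uninjured EpA cells, those most like Foxj1 were Gm973, Cd24a, Myb, Tubb4b, Rgs22 and Ascc1, with values of 0.14 to 0.16. For Rfx2 they were Adamts20, Rab36 and Dnah6, for Rfx3 Lztfl1, Map3k19 and Mpdz, for Rfx1 Ccdc146, Myo18a and Cfap45, and for Rfx4 Rpl17, Basp1 and Rps24, all between 0.10 and 0.12. Correlations of this size in sparse counts do not single out a gene. In the injured library alone, Dnah6, an inner arm dynein heavy chain, was the gene most correlated with Rfx2 (0.25).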

How the data were processed

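Single-cell 3′ libraries of tdTomato-sorted cells from 1 injured and 1 uninjured spinal cord preparation were used. The authors deposited raw counts of UMIs per gene and cell, whole numbers with unequal totals, for all barcodes, for kept cells and for EpA cells. The submitters' processing notes name Cell Ranger 3.0.1, Seurat and build mm10. The sources used here give neither the annotation nor the strand setting. Values of shared cells were identical between the deposited tables.

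UMIs were summed over EpA cells per library and scaled to CPM. Log2 ratios used 0.5 added counts. Exact 95% intervals were Poisson for levels, conditional binomial for ratios and Clopper-Pearson for shares. They cover counting error only. Genes were called at 2-fold with a mean of at least 5 CPM. Shares and correlations used cells thinned to 5000 UMIs without replacement. No doublet caller was run and no cell was removed. Cells outside EpA were clustered with scanpy 1.11.5 (2000 variable genes, 20 components, 15 neighbours, Leiden resolution 0.5) and named only from fixed markers. The name ependymal was not given to any of these clusters by rule. edgeR 4.0.16 gave TMM factors for an alternative. Calculations ran in Python 3.11.15 with scipy 1.17.1 and were tested on simulated data. Alternatives covered scaling, thinning, depth and the choice of cells.

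The 5 members and all lists were chosen with earlier results of these data known. Named were the 5 members, the other measured regulators, the 3 genes of each list with the largest absolute log2 ratio, and the genes most like each member (6 for Foxj1, 3 for each Rfx gene). Promoter and gene positions came from RefSeq (GRCm38.p6) and GENCODE M21.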

Additional observations from a re-analysis of the deposited data

Results flagged for a closer look

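Signal of all 5 factors stood in barcodes that the authors did not keep, which no comparison above uses and which were shallow, with medians of 2350 UMIs (338 injured barcodes) and 2272 UMIs (165 uninjured barcodes). Each value lies above the limit that a count of 0 allows. In the injured library Foxj1 was at 149.6 CPM, Rfx1 at 13.3, Rfx2 at 27.3, Rfx3 at 43.5 and Rfx4 at 56 CPM. In the uninjured library Foxj1 was at 332.8 CPM, Rfx1 at 37.2, Rfx2 at 28.7, Rfx3 at 55.8 and Rfx4 at 60.8 CPM. Motile cilium genes made up 4679 and 10717 CPM of these barcodes. With 1 library per condition, no library has others of its group to be compared with.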

How the results depend on the processing

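Under the other planned settings 39 values of the main results moved and 39 did not. A move was more than counting error, over 1.5 times for counts, or more than 0.1 for correlations. Under the setting added later, given below, 9 moved and 1 did not. The log2 ratio of Foxj1 was 0.0059 as UMIs per cell, −0.40 with cells weighted alike, −0.39 at 5000 and −0.42 at 2000 UMIs, −0.79 with TMM, −0.97 over all barcodes, −1.02 in cells under 10% mitochondrial UMIs and −0.49 without dividing cells. In the same order of settings where they moved, Rfx1 was −0.19 per cell, −0.50 with cells weighted alike and −0.77 without dividing cells. Rfx2 was −0.079 per cell, −0.46 with cells weighted alike, −0.41 at 5000, −0.56 at 2000 UMIs and −0.59 without dividing cells. Rfx3 was 0.084 per cell, −0.44 with cells weighted alike, −0.50 at 5000, −0.15 at 2000 UMIs, −1.03 under 10% mitochondrial UMIs and −0.44 without dividing cells. Rfx4 was 1.25 per cell, 0.64 at 2000 UMIs, 0.23 over all barcodes and 0.57 without dividing cells, and stayed above 0 in these settings. Of 73 motile cilium genes, those called lower numbered 8 per cell, 15 with cells weighted alike, 21 at 5000, 21 at 2000 UMIs and 40 without dividing cells. The share of all genes called lower was 1.64% per cell and was counted at no other alternative setting. The log2 ratio of motile cilium UMIs per Foxj1 UMI was −0.41 at 2000 UMIs, −0.69 under 10% mitochondrial UMIs and −0.39 with cells weighted alike. The Foxj1 correlation with motile cilium UMIs in injured cells was 0.43 at 2000 UMIs. The share of cells with a Foxj1 UMI, injured minus uninjured in percentage points, was −14.6 at 2000 UMIs, −5.24 without thinning, −24.1 under 10% mitochondrial UMIs and −12.9 without dividing cells, in place of −19.5.

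In cells of 8000 to 16000 UMIs, added after seeing the data, the log2 ratios were 0.086 for Foxj1, −0.13 for Rfx1, −0.050 for Rfx2, −0.090 for Rfx3 and 0.10 for Rfx4. There 0 motile cilium genes were called lower, their log2 ratio per Foxj1 UMI was −0.32, and the injured correlation was 0.23. The share with a Foxj1 UMI was 2.90 points higher in injured cells, with no interval computed. The log2 ratio of Trp73 reversed in these cells, to 0.19. The causes were not tested. No paired analysis was possible because each condition has 1 library. The median log2 ratio of all genes was 0.83 as UMIs per cell, so unscaled ratios are read against that shift. Rfx1, with 195 uninjured UMIs, is the member that depth limits most.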
